A study of Mus musculus with 18 samples.

Results

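Fatty acids released inside a cell can be read by the peroxisome proliferator-activated receptors (PPARs), and the 8 genes described here are classic targets of these receptors that respond to fatty acids or to fasting. They were Plin2, Hilpda, Angptl4, Fabp3, Ucp2, Ucp3, Acot1 and Acot2. They were chosen by symbol from the 17672 genes of the count table, with Pdk4, another classic target, left out of the set. RNA came from an immortalized mouse brown adipocyte line that carried a stable shRNA against Abhd5 and, on a pINDUCER20 lentivirus, an mCherry-tagged ABHD5 that resists the shRNA and is switched on by doxycycline (Dox). All 6 groups shared both constructs and were differentiated in the same way. Cells without Dox were the knockdown state (ABHD5 KD) and cells given Dox at 1 µg/ml the rescued state, called WT in the labels. The labels and the study's methods for this line give 24 to 48 h of Dox, and its figure legend for this experiment gives 24 h. In each state, cells received DMSO as vehicle, the pan-β-adrenergic agonist isoproterenol (ISO, 10 nM) or the synthetic ABHD5 ligand SR-3420 (20 µM), and were harvested after 3 h. Each of the 6 groups had 3 libraries, described by the study as independent experiments. The rescued cells are knockdown cells that re-express a tagged transgene, so they differ from unmodified brown adipocytes.

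PPARs are nuclear receptors that bind DNA together with a retinoid X receptor (RXR) and that change transcription when a fatty acid or a drug occupies their ligand pocket. They bind a direct repeat of the hexamer AGGTCA with a spacer of a single base, known as a DR1. PPARγ directs fat storage and adipocyte identity, and PPARα, abundant in brown fat, is best known for fatty acid oxidation. In brown adipocytes a β-adrenergic signal raises cAMP and, through protein kinase A, frees ABHD5 to activate the lipase ATGL, whereas an ABHD5 ligand frees ABHD5 without the receptor. The 8 genes act at different points of fatty acid handling. PLIN2 coats cytosolic lipid droplets, HILPDA is a small droplet protein that inhibits ATGL, ANGPTL4 is secreted and inhibits lipoprotein lipase, and FABP3 carries fatty acids inside the cell. UCP2 and UCP3 are carriers of the inner mitochondrial membrane related to the thermogenic UCP1. ACOT1 in the cytosol and ACOT2 in mitochondria split long-chain acyl-CoA into free fatty acid and coenzyme A.

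Library totals ran from 689910 to 1956565 counts. The lengths deposited beside the counts lie near intron lengths for most genes, whereas the methods of the study name counting over genes. Counts of Abhd5 rose 10.98-fold with Dox, which drives a re-coded construct of its coding sequence, so the counts are read as including exon reads, and how much of them is unspliced RNA is not known here. Levels are given as CPM, with library sizes scaled by TMM. The library SR-3420 with Dox replicate 1 stood apart, with 35.6% of its counts in its 10 largest genes against 16.34% to 26.49% in the other 17. Its TMM factor was 0.7676 against 0.8934 to 1.132. Abhd5 itself gave 52.6 ± 4.71 CPM in DMSO without Dox and 574 ± 86.1 CPM with Dox (SD, n = 3 each), in the direction of the labels. The brown adipocyte label was checked against markers. All 6 adipocyte markers in the table gave counts, 6 of 7 brown adipocyte markers did, and Dio2 was at 0 in every library. Elovl3 gave only 24 counts over all libraries. All 6 preadipocyte or fibroblast markers and all 5 macrophage markers in the table also gave counts, so giving counts does not tell these cell types apart. Mean levels over all libraries were 503 CPM for Adipoq, 65.5 for Prdm16, 23.8 for Cidea, 271 for Col1a1 and 11.3 for Cd68. Of 6 skeletal muscle markers, Myod1, Myog, Myf5 and Myh1 were at 0 in every library and the summed level did not pass 3.515 CPM. In bulk RNA such as this, fewer cells of a type and less RNA per cell cannot be told apart.

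The RefSeq promoter table (build GRCm38.p6) held 7 of the 8 genes, and Angptl4 was not matched. The 250 bases before the start, for Hilpda the first of its 2 annotated starts, are shown for Plin2, Hilpda and Ucp3, the members called higher with the ABHD5 ligand in rescued cells, to let the DNA be read beside the values. Capitals mark AGGTCA, the PPAR hexamer, or TGACG, the core of the cAMP response element, on either strand (as TGACCT or CGTCA on the reverse strand).
Plin2, chr4:86670060-86670309, minus strand: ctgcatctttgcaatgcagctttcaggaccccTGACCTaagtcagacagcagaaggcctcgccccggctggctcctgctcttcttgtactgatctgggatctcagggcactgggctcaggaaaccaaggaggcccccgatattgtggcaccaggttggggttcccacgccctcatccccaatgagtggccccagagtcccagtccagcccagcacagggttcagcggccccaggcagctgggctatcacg
Hilpda, chr6:29272238-29272487, plus strand: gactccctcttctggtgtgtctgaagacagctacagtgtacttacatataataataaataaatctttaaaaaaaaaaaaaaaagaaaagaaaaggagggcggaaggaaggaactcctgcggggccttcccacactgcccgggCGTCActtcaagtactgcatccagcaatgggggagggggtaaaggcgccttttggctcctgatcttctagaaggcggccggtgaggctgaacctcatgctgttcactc
Ucp3, chr7:100472741-100472990, plus strand: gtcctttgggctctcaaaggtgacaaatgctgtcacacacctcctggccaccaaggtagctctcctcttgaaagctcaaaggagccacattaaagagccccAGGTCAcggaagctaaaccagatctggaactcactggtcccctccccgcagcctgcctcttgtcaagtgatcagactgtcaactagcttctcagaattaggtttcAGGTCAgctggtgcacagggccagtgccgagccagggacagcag
AGGTCA occurred once in the Plin2 window and in 2 places in the Ucp3 window, and in none of the other windows of the members. It was present in 14.02% of all 32851 promoters of this length. TGACG was found in the windows of Hilpda, Fabp3, Ucp2 and Acot2, against 17.77% of all promoters. The window of the second Hilpda start, at chr6:29272376-29272625, overlaps the one shown and holds TGACG in 2 places. The motifs were searched on both strands and do not overlap in the windows shown. In the windows of 250 bases, Plin2 and Ucp3 each held a DR1 match with 2 mismatches, and the other members with a window had at least 3. Of all promoters, 3.24% held a match with at most 2 mismatches. Within 5000 bases to either side of the start on mm9, all 8 members had a match with at most 2 mismatches, as did 77.35% of all 17672 genes. Fabp3 was the only member with a DR1 match of at most 1 mismatch there, against 20.26% of all genes. The match read AGCTCAgAGGTCA, with the 2 hexamers in capitals, at chr4:129985124-129985136 on the plus strand, centred 892 bases before the start. These matches are letters in a window and say nothing of binding.

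On mm9, Plin2 (NM_007408) lies on chromosome 4 at 86302469 to 86315963, minus strand. Hilpda (NM_001190461) lies on chromosome 6 at 29222488 to 29225449, plus strand, and is annotated there under its older symbol 2310016C08Rik. Angptl4 (NM_020581) lies on chromosome 17 at 33911845 to 33918520, minus strand. Fabp3 (NM_010174) lies on chromosome 4 at 129986022 to 129992707, plus strand, and shares 81 bases at its end with Zcchc17 on the other strand, all of them within exons of Fabp3, so its values are uncertain. Ucp3 (NM_009464) lies on chromosome 7 at 107621500 to 107634941, and Ucp2 (NM_011671) follows it on the same plus strand 6925 bases on, at 107641867 to 107648138. Acot2 (NM_134188) lies on chromosome 12 at 85328811 to 85334825, and Acot1 (NM_012006) follows on the same plus strand 15626 bases on, at 85350452 to 85358619. The thioesterase pair is similar enough that reads can be shared, with 16.34% of the 30-base words of Acot1 also in Acot2 and 22.13% of those of Acot2 in Acot1. For Ucp2 and Ucp3 these shares were 0.18% and 0.12%. Apart from Fabp3, no member overlapped another annotated gene.

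Per kilobase of the deposited length (RPKM), which allows genes to be compared as far as that length is the one counted, Angptl4 was the highest member in DMSO without Dox, at 55.2 ± 21.98 (SD, n = 3). Plin2 followed at 7.47 ± 3.56 and Ucp2 at 7.35 ± 4.26, levels that did not differ beyond their spread. This order rests on the deposited lengths, 11604 bases for Plin2, 2346 for Ucp2 and 6046 for Fabp3. Their exons cover 3317, 4579 and 640 bases, so with exon lengths the order could differ. Fabp3 stood at 1.29 ± 0.468, Hilpda at 0.660 ± 0.587 and Ucp3 at 0.348 ± 0.278. Acot1 and Acot2 were lowest, at 0.125 ± 0.217 and 0.0893 ± 0.155. In rescued cells with SR-3420 the order changed below Angptl4, which was at 161 ± 20.2 RPKM. Plin2 came next at 49.3 ± 14.5 and Hilpda stood above Ucp2, with 14.05 ± 3.43 against 10.1 ± 0.633 RPKM. Of the 8 members, 6 passed the count filter, which asked for 3 libraries at about 8.73 CPM, and Acot1 and Acot2 did not. Plin2, Angptl4 and Ucp2 passed it in 17 or 18 libraries. Hilpda had 3 such libraries only in the ISO and SR-3420 groups with Dox, Ucp3 only in SR-3420 with Dox and Fabp3 only in DMSO with Dox. These 3 genes were thus tested because of the groups in which they are high, and counts of called members below are not set against the share of all genes as support.

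**Figure D1:**
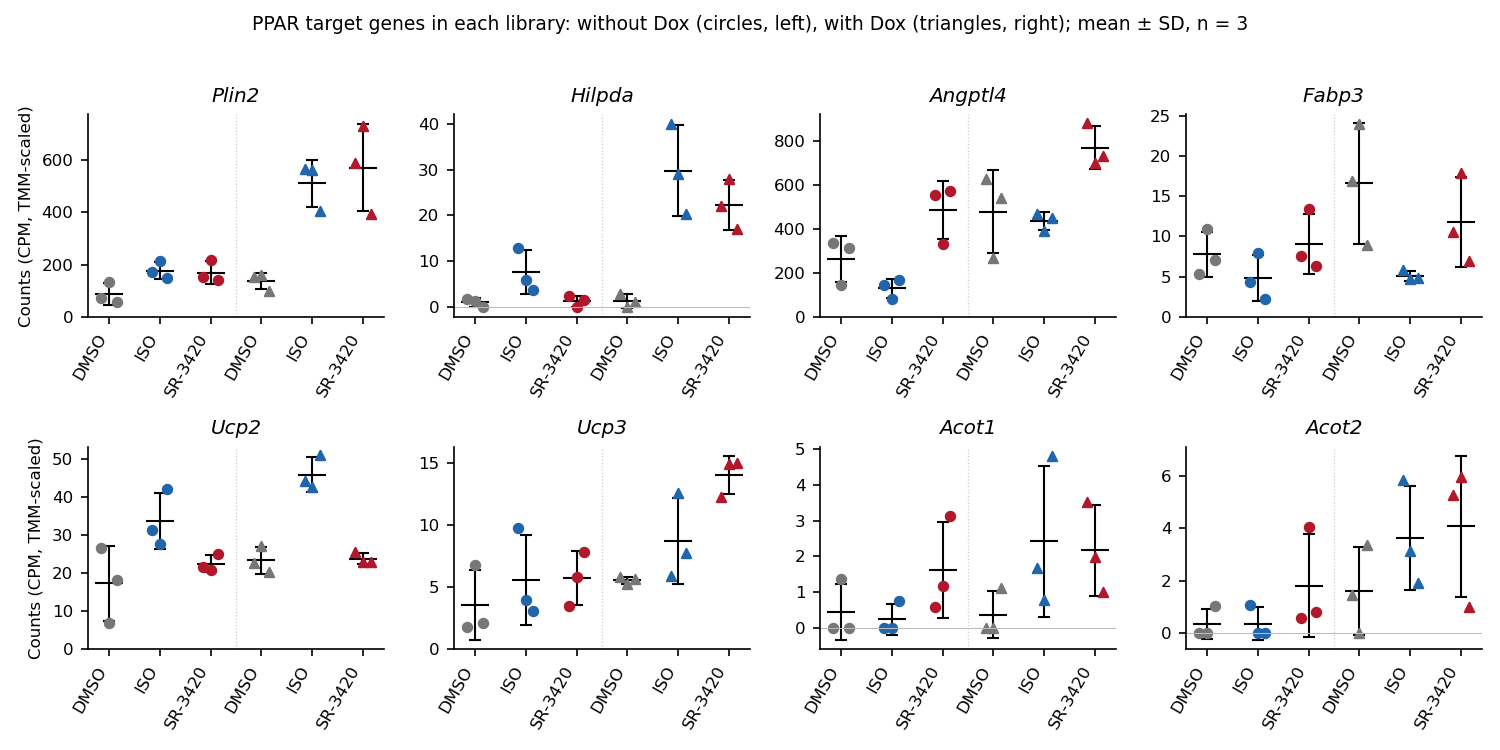
Counts of the 8 members in each of the 18 libraries, in TMM-scaled CPM on a linear axis that differs between genes; circles are libraries without Dox, triangles libraries with Dox, and bars the mean ± SD of 3 libraries. Plin2 and Hilpda are high with ISO and with SR-3420 in the rescued cells, Ucp2 is high with ISO in both states, and Fabp3 with Dox is lower with ISO than with DMSO.

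The lipid droplet proteins come first. Plin2 gave 72.1, 133 and 54.8 CPM in DMSO without Dox (replicates 1, 2 and 3), and 170, 213 and 148 CPM with ISO and 151, 218 and 140 CPM with SR-3420 in the same knockdown state. In rescued cells it gave 152, 158 and 99.99 CPM in DMSO, 566, 561 and 405 CPM with ISO, and 589, 731 and 395 CPM with SR-3420. Each of the stimulated groups lay above its own DMSO group without overlap, and both stimulated groups of the rescued state lay above all other libraries. The group means ran from 86.7 ± 41.3 CPM in DMSO without Dox to 572 ± 168 CPM with SR-3420 and Dox (SD, n = 3 each), and the neighbors ISO and SR-3420 with Dox overlapped, as did the 4 lower groups each with the next.

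Hilpda gave few counts outside stimulation. Its raw counts were 2, 1 and 0 in DMSO without Dox, 12, 6 and 5 with ISO and 4, 0 and 2 with SR-3420. With Dox they were 6, 0 and 1 in DMSO, 48, 37 and 21 with ISO, and 25, 28 and 17 with SR-3420. In CPM the rescued cells gave 1.34 ± 1.46 in DMSO, 29.8 ± 9.92 with ISO and 22.3 ± 5.44 with SR-3420 (SD, n = 3 each). A count of 0 allows up to 3 counts, which was between 1.444 and 4.081 CPM over the 18 libraries, and this limit covers counting error only. ISO and SR-3420 in rescued cells overlapped each other and lay above every other library, ISO without Dox came next at 7.56 ± 4.81 CPM, and the other 3 groups overlapped near 1 CPM.

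Angptl4, the secreted lipase inhibitor, was the exception among the abundant members. It gave 335, 143 and 312 CPM in DMSO without Dox, 143, 82.3 and 165 CPM with ISO, and 555, 331 and 570 CPM with SR-3420. With Dox it gave 625, 269 and 542 CPM in DMSO, 466, 389 and 449 CPM with ISO, and 880, 700 and 729 CPM with SR-3420. Replicate 2 was the lowest library in all 6 groups. The lowest group mean was ISO without Dox (130 ± 42.8 CPM) and the highest SR-3420 with Dox (770 ± 96.5 CPM, SD, n = 3 each), whose libraries lay above all others.

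Fabp3 gave few counts, with 3 to 35 counts per library. It gave 5.34, 10.9 and 7.10 CPM in DMSO without Dox, 4.32, 7.93 and 2.25 CPM with ISO, and 7.55, 13.4 and 6.28 CPM with SR-3420. With Dox it gave 16.9, 23.9 and 8.99 CPM in DMSO, 5.84, 4.73 and 4.81 CPM with ISO, and 10.55, 17.9 and 6.99 CPM with SR-3420. It was the only member whose highest group mean was an unstimulated one, DMSO with Dox at 16.6 ± 7.48 CPM (SD, n = 3), although every group overlapped the next in the order of means. Replicate 2 was the highest library in 5 of the 6 groups.

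The mitochondrial carriers differed from each other. Ucp2 gave 26.7, 6.80 and 18.3 CPM in DMSO without Dox, 31.3, 27.8 and 42.0 CPM with ISO, and 21.5, 20.9 and 25.1 CPM with SR-3420. With Dox it gave 22.6, 27.1 and 20.2 CPM in DMSO, 44.2, 42.5 and 51.0 CPM with ISO, and 25.5, 22.9 and 23.0 CPM with SR-3420. The ISO groups lay above all DMSO and SR-3420 libraries in both states. Ucp3 gave 2 to 16 counts per library, and its highest group was SR-3420 with Dox at 12.3, 14.9 and 14.98 CPM, against 5.78, 5.20 and 5.62 CPM in DMSO with Dox and 5.84, 12.6 and 7.70 CPM with ISO and Dox. Without Dox, Ucp3 was at 3.54 ± 2.83 CPM in DMSO, 5.56 ± 3.64 with ISO and 5.71 ± 2.18 with SR-3420 (SD, n = 3 each), groups that overlapped.

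The acyl-CoA thioesterases were close to undetected and were left out by the count filter. Acot1 summed over 3 libraries to 1 count in DMSO, 1 with ISO and 7 with SR-3420 without Dox, and to 1, 8 and 7 counts with Dox. Acot2 summed to 1, 1 and 9 counts without Dox and to 6, 13 and 13 counts with Dox. With Dox, the count ratio of Acot1 against DMSO was 8.96 with ISO (95% exact interval of counting 1.20 to 398) and 8.74 with SR-3420 (1.12 to 394). For Acot2 these ratios were 2.43 (0.86 to 7.78) and 2.71 (0.96 to 8.68). These intervals cover counting error only. Without the filter, edgeR tested 15973 genes and called neither thioesterase in any of the 8 comparisons. With Dox, the log2 fold changes of Acot1 were then 2.74 with ISO (SE 1.27, adjusted p 0.114) and 2.65 with SR-3420 (SE 1.29, adjusted p 0.267). Those of Acot2 were 1.22 with ISO (SE 0.83, adjusted p 0.343) and 1.35 with SR-3420 (SE 0.83, adjusted p 0.460).

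The first comparison asks what the agonist does in knockdown cells. Abhd5 was itself higher with ISO in this state, at 149 ± 21.9 CPM against 52.6 ± 4.71 CPM in DMSO (SD, n = 3 each), a log2 fold change of 1.51 (SE 0.18, adjusted p 3.34e-07). Its level stayed below the 574 CPM of DMSO with Dox, and its part in the results was not tested. Of the 6 tested members, Plin2 and Hilpda rose, Angptl4 fell, and Ucp2, Ucp3 and Fabp3 were not called. Called here means that the adjusted p (edgeR quasi-likelihood test, Benjamini-Hochberg over 10178 genes) did not exceed 0.05 and that the log2 fold change was 1 or more in either direction. By this rule 5.81% of all genes tested were called higher and 5.08% lower, which is 591 and 517 genes. With library totals in place of TMM the split was 411 higher and 833 lower, and the median of all genes was then -0.19, so the balance of higher and lower calls depends on the scaling. Plin2 rose by 1.06 on the log2 scale (SE 0.26, adjusted p 0.00289), which is 2.09-fold. Hilpda rose by 2.65 (SE 0.85, adjusted p 0.0196), against 3 counts in all of DMSO, and the ratio of its summed counts was 6.68 with an exact counting interval of 2.02 to 34.7. Angptl4 fell by 1.02 on the log2 scale (SE 0.28, adjusted p 0.00708), although 1 of its DMSO libraries lay among the ISO libraries. That library was DMSO replicate 2, and Angptl4 was lower with ISO in each same-numbered pair. Ucp2 differed by 0.90 (SE 0.28, adjusted p 0.0168), below the fold limit. It was called without DMSO replicate 1 (1.36, adjusted p 0.00333), without ISO replicate 2 (1.03, adjusted p 0.0120) and with limma-voom (1.01, adjusted p 0.0165), and was at 0.59 (adjusted p 0.0934) without DMSO replicate 2. Each of the 3 calls rested on few libraries. Without DMSO replicate 3, no member was called, and the log2 fold changes were then 0.81 for Plin2, 2.08 for Hilpda and -0.89 for Angptl4. Without DMSO replicate 1, Hilpda was at 3.39.

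In rescued cells the same agonist raised Plin2 and Hilpda and lowered Fabp3. Plin2 rose by 1.89 (SE 0.23, adjusted p 3.29e-07), a fold of 3.71, and Hilpda by 4.02 (SE 0.54, adjusted p 1.12e-06), with 106 counts in all against 7 in DMSO, 6 of them in replicate 1. Without DMSO replicate 1 the value of Hilpda was 5.53 (adjusted p 1.25e-05). Fabp3 fell by 1.69 on the log2 scale (SE 0.45, adjusted p 0.00428), from 66 counts in all to 18. These were 2 members higher and 1 lower, where 6.22% of all genes were called higher and 6.89% lower. The split of all genes was 633 higher and 701 lower, and 489 and 975 with library totals, where the median of all genes was -0.16. Ucp2 differed by 0.97 (SE 0.24, adjusted p 0.0028), just under the fold limit, with no overlap between the groups. It was called without DMSO replicate 2 (1.07, adjusted p 0.0038), ISO replicate 1 (1.00, adjusted p 0.00731) or ISO replicate 2 (1.05, adjusted p 0.00369). Angptl4 differed by -0.15 (95% interval -0.67 to 0.38) and Ucp3 by 0.65 (-0.29 to 1.58), and neither passed the test. When 10 counts were asked of every library, Plin2 was the 1 member left to be called.

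SR-3420 was compared with DMSO to ask what the ABHD5 ligand does without the agonist. In knockdown cells no member was called, where 0.236% of all genes were called higher. Plin2 came closest, with a log2 fold change of 1.01 (SE 0.26, adjusted p 0.0554) and no overlap between the groups. With the replicate number as a block its value was 1.01 at an adjusted p of 5.49e-06, which passes. Angptl4 differed by 0.86 (SE 0.26, adjusted p 0.166). It was higher with SR-3420 in 3 of 3 same-numbered pairs, and with the block it was at 0.89 with an adjusted p of 5.73e-05, below the fold limit. Ucp3 differed by 0.78 (95% interval -0.39 to 1.95), Fabp3 by 0.31 (-0.64 to 1.25) and Ucp2 by 0.29 (-0.30 to 0.87). For Hilpda, 6 counts against 3 gave a ratio of 1.21 with a counting interval of 0.26 to 7.45, so a difference was not detectable at this depth.

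In rescued cells, SR-3420 raised Plin2 and Hilpda, and Ucp3 was called at the edge of the threshold, where 2.10% of all genes were called higher. The split of all genes was 214 higher and 102 lower, and 125 and 230 with library totals, where the median of all genes was -0.21. Plin2 rose by 2.05 (SE 0.24, adjusted p 6.61e-07), a fold of 4.14, and Hilpda by 3.60 (SE 0.57, adjusted p 6.71e-05). Without DMSO replicate 1 the value of Hilpda was 5.10 (adjusted p 0.000348). Ucp3 rose by 1.31 (SE 0.43, adjusted p 0.0492), a call that rested on 44 counts against 22. Without the count filter it was at 1.30 (adjusted p 0.0544) and was not called. It was lost whichever of the 6 libraries was left out, with values of 1.27 to 1.41 and adjusted p from 0.0863 to 0.140. Without SR-3420 replicate 1, the library that stood apart, Plin2 was at 2.03 (adjusted p 4.18e-06), Hilpda at 3.61 (0.000314) and Ucp3 at 1.41 (0.0863). Angptl4 differed by 0.68 (SE 0.25, adjusted p 0.0928), higher in 3 of 3 same-numbered pairs, and with the block by 0.75 at an adjusted p of 6.42e-05, below the fold limit. Ucp2 differed by 0.04 (95% interval -0.52 to 0.59) and Fabp3 by -0.50 (-1.30 to 0.30). The summed adipocyte markers were at 2349 to 2549 CPM in DMSO with Dox, 4147 to 4218 with ISO and 3558 to 4599 with SR-3420. Without Dox they were at 1923 to 2185, 1990 to 2272 and 2918 to 3122 CPM in that order. With ISO without Dox they thus overlapped DMSO, although Plin2 and Hilpda were called higher there. These markers include Cidec, Fabp4 and Pparg, which are also read below as genes of the PPAR pathway. Brown adipocyte markers summed to 78.9 to 158.4, 296.4 to 477.4 and 112.1 to 171 CPM without Dox, and to 140.1 to 177.5, 605.7 to 1194 and 168 to 324.3 CPM with Dox, for DMSO, ISO and SR-3420. In the same order, preadipocyte or fibroblast markers summed to 249.1 to 335.8, 256.1 to 281.5 and 259.6 to 362.5 CPM without Dox, and to 321.7 to 501.1, 229.3 to 330.2 and 271.4 to 378.5 CPM with Dox. Of these 6 markers, Ly6a was called higher with ISO without Dox (3.29, adjusted p 3.53e-05) and with ISO against SR-3420 with Dox (2.21, adjusted p 0.00197). Macrophage markers summed to 2.252 to 18.26 CPM over all libraries. Their part in the result was not tested.

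**Figure D2:**
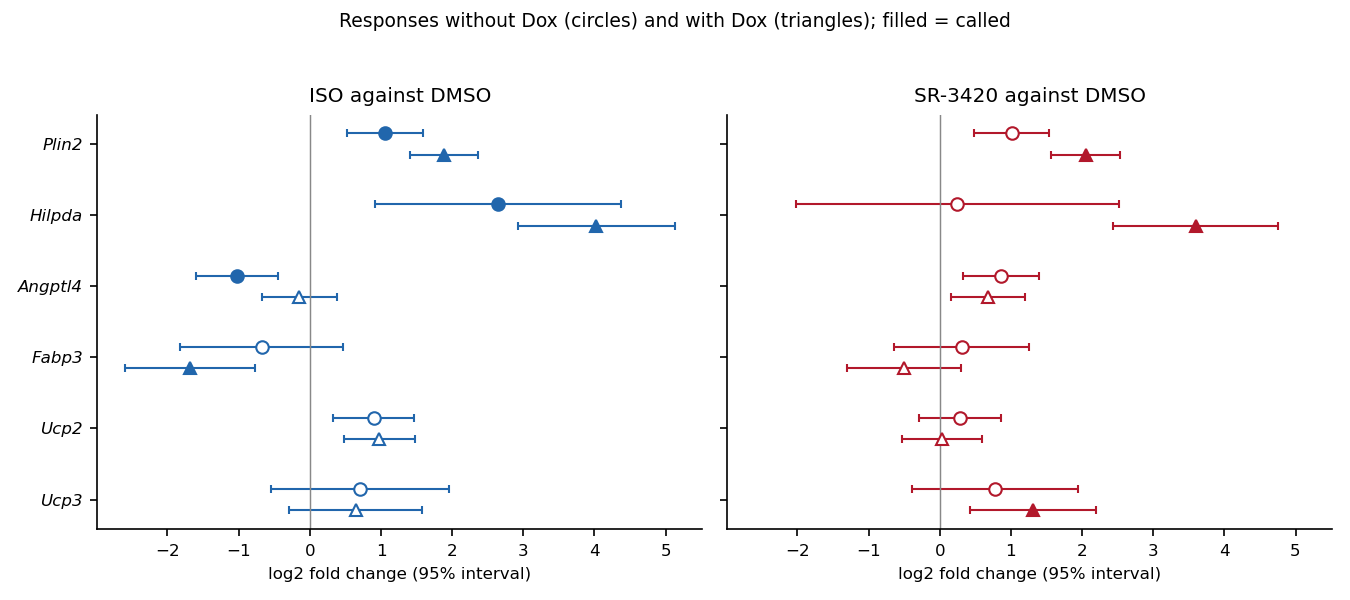
Log2 fold changes of the 6 tested members against DMSO, for ISO (left) and SR-3420 (right), without Dox (circles) and with Dox (triangles). The 95% intervals were worked back from the F statistics of the edgeR fit, and filled symbols were called. The intervals of Plin2 lie above 0 in all 4 comparisons, while that of Hilpda with SR-3420 without Dox runs from -2.02 to 2.52.

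Dox against no Dox in DMSO asks what re-expression of ABHD5 does without a stimulus. Every rescued library received Dox and no group received it without the construct, so Dox itself and ABHD5 cannot be told apart, here and in each comparison of the 2 states. No member was called, where 0.874% of all genes were called higher. Fabp3 had the largest difference, 1.16 (SE 0.44, adjusted p 0.320), followed by Angptl4 with 0.85 (SE 0.26, adjusted p 0.146), Ucp3 with 0.78 (SE 0.59, adjusted p 0.702) and Plin2 with 0.71 (SE 0.26, adjusted p 0.306). With the replicate number as a block, Angptl4 was at 0.85 (adjusted p 6.49e-05) and Plin2 at 0.72 (adjusted p 0.00158), past the p threshold and below the fold limit, and Fabp3 at 1.12 (adjusted p 0.0958). Each of these 3 genes was higher with Dox in 3 of 3 same-numbered pairs. The replicates of DMSO varied widely in these genes, and the groups overlapped for all 6. Plin2 was called without DMSO without Dox replicate 2 (1.11, adjusted p 0.0279), and Angptl4 without DMSO with Dox replicate 2 (1.14, adjusted p 0.0134).

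The interaction, which is the response with Dox minus that without Dox, tests whether a response changed with rescue. No member was called, where 0.894% of all genes were called higher for ISO and 0.452% for SR-3420. The splits of all genes were 91 higher and 42 lower for ISO and 46 and 14 for SR-3420, and with library totals 94 and 19 for ISO and 16 and 25 for SR-3420. For ISO the interaction was 0.83 (95% interval 0.11 to 1.54, adjusted p 0.252) for Plin2, 1.38 (-1.46 to 4.21, adjusted p 0.711) for Hilpda and 0.88 (0.10 to 1.65, adjusted p 0.265) for Angptl4. For SR-3420 it was 1.04 (0.33 to 1.75, adjusted p 0.170) for Plin2 and 3.35 (0.20 to 6.49, adjusted p 0.376) for Hilpda. The remaining values for ISO were 0.08 for Ucp2, -0.06 for Ucp3 and -1.01 for Fabp3. Those for SR-3420 were -0.19 for Angptl4, -0.25 for Ucp2, 0.53 for Ucp3 and -0.81 for Fabp3. The 95% intervals of these remaining values all held 0. Leaving out 1 library moved the ISO interaction of Plin2 over 0.42 to 1.07, of Hilpda over 0.62 to 2.89 and of Angptl4 over 0.60 to 1.16, and the SR-3420 interaction of Plin2 over 0.63 to 1.28 and of Hilpda over 2.59 to 4.85, with no call. With the replicate number as a block, the SR-3420 interaction of Plin2 was 1.02 at an adjusted p of 0.0011, which is called. With the block the ISO interactions of Plin2 and Angptl4 were at 0.80 (adjusted p 0.00678) and 0.92 (adjusted p 0.00416), past the p threshold and below the fold limit. The larger value of Hilpda with Dox is thus not shown to differ from that without Dox. Its knockdown libraries held 0 to 4 counts in DMSO and SR-3420. Pdk4, the classic target left out of the set, was called in both interactions, at 1.76 for ISO (SE 0.36, adjusted p 0.00616) and 1.98 for SR-3420 (SE 0.36, adjusted p 0.00639).

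ISO and SR-3420 were also compared with each other in rescued cells, at their single doses. No member was called, where 3.49% of all genes were called higher with ISO and 3.36% lower. The split was 355 higher and 342 lower, and 392 and 283 with library totals. Plin2 differed by -0.16 (95% interval -0.61 to 0.28) and Hilpda by 0.43 (-0.30 to 1.16), intervals that hold differences in either direction. Ucp2 was higher with ISO by 0.94 (SE 0.25, adjusted p 0.00757) and Angptl4 lower by a log2 fold change of -0.83 (SE 0.26, adjusted p 0.0217), both past the p threshold and below the fold limit. Fabp3 differed by -1.18 (SE 0.48, adjusted p 0.0833). With the replicate number as a block it was at -1.20 with an adjusted p of 0.0256, which is called. Ucp2 passed the fold limit without SR-3420 replicate 1, at 1.01 (adjusted p 0.0166), whereas Angptl4 was then at -0.70 (adjusted p 0.0873).

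**Figure D3:**
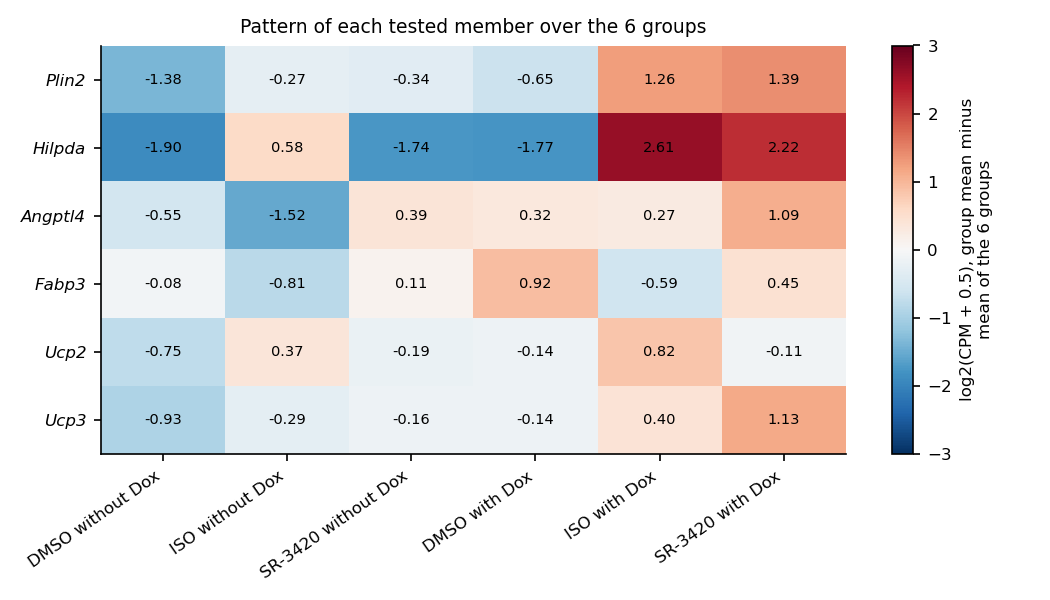
Group means of log2(CPM + 0.5) for the 6 tested members, each centred on its mean over the 6 groups; red is above and blue below that mean. Hilpda spans from -1.90 in DMSO without Dox to 2.61 with ISO and Dox, while Ucp2 is highest with ISO in both states and Fabp3 is highest in DMSO with Dox.

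The members did not share a pattern over the groups. Likeness was measured as the root mean square difference between centred group means on the log2(CPM + 0.5) scale, over 6 groups of 3 libraries, as a description. Among the members, Plin2 and Ucp3 were closest, at 0.46, and Hilpda and Fabp3 farthest apart, at 2.21. Of all genes tested, those most like Plin2 were Aifm2 (0.19), Tspan18 (0.27) and Ppargc1b (0.28), against a median of 1.04 over all genes. Those most like Hilpda were Lims2 (0.50), Pck1 (0.70) and Dusp10 (0.83), with a median of 1.93. Angptl4 was most like Lama4 (0.17), Cpa3 (0.18) and Aqp7 (0.20), and Ucp3 most like Maff (0.15), Zfr2 (0.15) and Mtus1 (0.20). Fabp3 was most like Nlrc3 (0.087), 1110051M20Rik (0.13) and Pitpnm3 (0.15). For genes as weak as Ucp3 and Fabp3, such likeness includes counting noise.

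The other genes of the pathway were read from lists that do not contain the members. Among 14 PPAR receptors and partners, all tested, 2 were called higher with ISO without Dox, 5 with ISO and Dox, none with SR-3420 without Dox, 5 with SR-3420 and Dox, and none was called lower in these comparisons. Their median log2 fold changes were 0.21, 0.28, 0.15 and 0.37 in that order, against -0.010, -0.0195, -0.0034 and -0.015 for all genes tested. Of all genes tested, 5.81%, 6.22%, 0.236% and 2.10% were called higher in these comparisons. Without Dox, ISO raised the coactivators Ppargc1a (2.20, adjusted p 7.08e-06) and Ppargc1b (1.41, adjusted p 0.000642). With Dox it raised Ppargc1a (3.28, adjusted p 4.62e-10), Ppargc1b (2.50, adjusted p 1.63e-08), the coactivator Ncoa1 (1.35, adjusted p 1.62e-06), Pparg (1.04, adjusted p 7.22e-06) and Ppara (2.10, adjusted p 0.00214). SR-3420 with Dox raised Ppargc1b (1.98, adjusted p 5.93e-06), Ppara (2.72, adjusted p 0.000326), the corepressor Nrip1 (1.62, adjusted p 0.00226), Rxrg, an RXR (1.88, adjusted p 0.0112) and Ppargc1a (1.14, adjusted p 0.0166). Between the stimuli with Dox, Ppargc1a and Pparg were higher with ISO, by 2.15 (adjusted p 6.09e-07) and 1.11 (adjusted p 7.34e-06). Nrip1 and Rxrg were lower with ISO, at -1.68 (adjusted p 0.00102) and -1.34 (adjusted p 0.0394). Of all genes tested, 3.49% were called higher and 3.36% lower between the stimuli. In the ISO interaction, Ncoa1 was called higher (1.19, adjusted p 0.0193), against 0.894% of all genes.

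Among the oxidation targets, 19 of 24 genes in the table were tested. With ISO, 1 was called higher and 1 lower without Dox and 5 higher with Dox, and with SR-3420 the numbers were 2 higher without Dox and 4 higher with Dox. Of all genes tested, 5.81% were called higher and 5.08% lower with ISO without Dox, 6.22% higher with ISO and Dox, 0.236% higher with SR-3420 without Dox and 2.10% with Dox. The single genes higher and lower with ISO without Dox are near that background. The medians were 0.20, 0.62, 0.44 and 0.61. Acaa1b, a peroxisomal thiolase, was called higher in 3 of these comparisons, at 2.97 with ISO and Dox (adjusted p 5.81e-11), 2.02 with SR-3420 without Dox (adjusted p 3.64e-06) and 2.38 with SR-3420 and Dox (adjusted p 2.41e-08). Without Dox, ISO raised Cpt1a, which commits fatty acids to mitochondria (1.40, adjusted p 4.68e-05), and lowered the peroxisomal enzyme Ehhadh (-1.93, adjusted p 0.000641). In the ISO interaction, Acaa1b (5.28-fold, adjusted p 6.13e-05) and Pex11a, a peroxisome division protein (2.26-fold, adjusted p 0.00269), were called higher, against 0.894% of all genes.

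Among the lipid handling targets, 17 of 19 genes in the table were tested. With ISO, 3 were called higher and 1 lower without Dox, and 6 higher and 1 lower with Dox. With SR-3420, 3 were called higher without Dox and 7 with Dox. The shares of all genes called higher were again 5.81% and 6.22% with ISO and 0.236% and 2.10% with SR-3420, without and with Dox, and the single genes called lower with ISO are near the 5.08% and 6.89% of all genes. The medians were 0.09, 0.69, 0.71 and 0.72. With ISO and Dox the smallest p belonged to Pck1, the enzyme of glyceroneogenesis (5.35, adjusted p 2.97e-13), the glycerol kinase gene Gyk (3.84, adjusted p 6.33e-13) and Acsl1, which activates fatty acids (2.57, adjusted p 1.83e-12). With SR-3420 and Dox it belonged to Fabp4 (2.82, adjusted p 1.79e-08), Acsl1 (1.73, adjusted p 2.59e-08) and Plin4 (1.61, adjusted p 4.45e-06). The fatty acid transporter Slc27a1 fell with ISO in both states, at -1.17 without Dox (adjusted p 0.00019) and -1.12 with Dox (adjusted p 7.64e-05), and rose with SR-3420 without Dox (1.20, adjusted p 0.000706). The ISO interaction was called for Cidec (1.45, adjusted p 0.000397), Acsl1 (1.63, adjusted p 0.00017), Aqp7 (1.29, adjusted p 0.00508) and Fabp4 (1.92, adjusted p 0.0251). Of all genes tested, 0.894% were called higher in that interaction. Acaa1b, Ehhadh, Gyk, Ncoa1, Plin4 and Ppargc1b overlap other annotated genes, and their values are uncertain because a strand setting is not given in the sources used here.

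**Figure D4:**
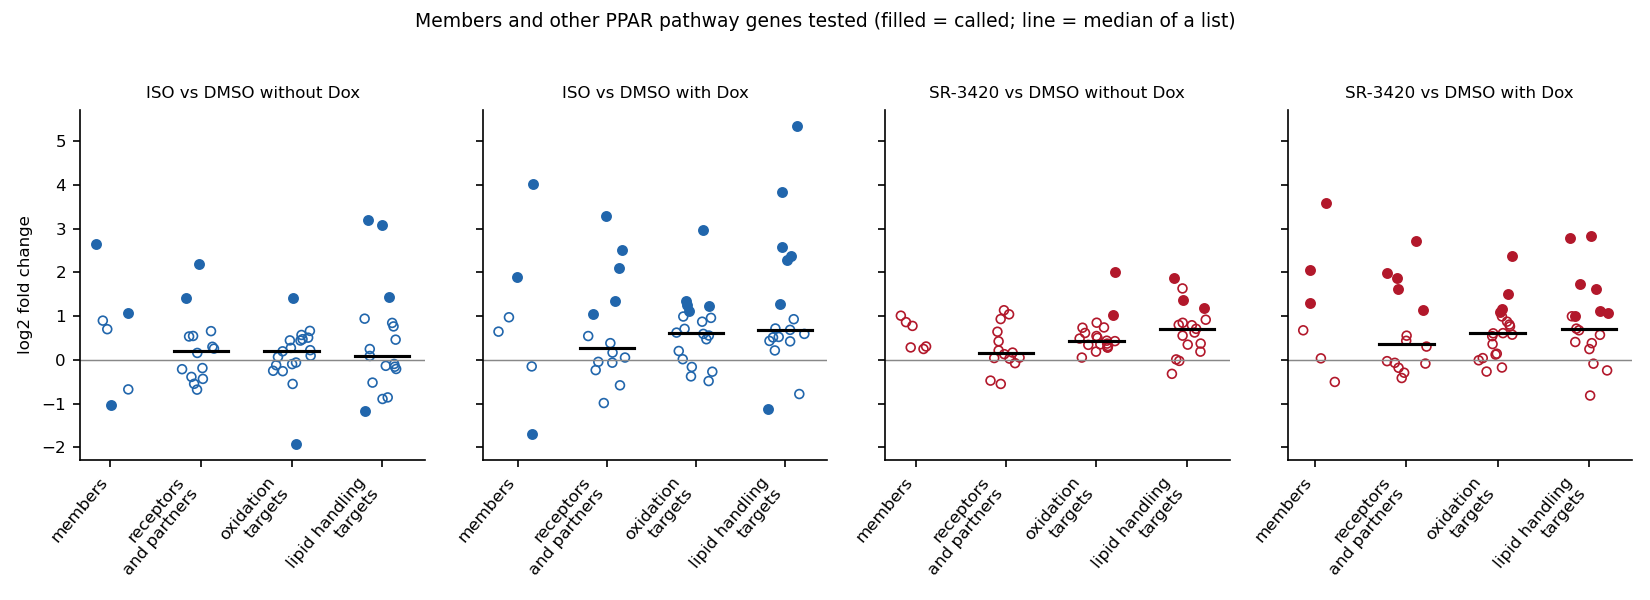
Log2 fold changes against DMSO for the tested members and for the tested genes of 3 other PPAR pathway lists, in 4 comparisons; each point is a gene, filled points were called and the line is the median of each other list, with none drawn for the members, 3 of which passed the count filter only through groups where they are high. With SR-3420 and Dox the medians are 0.37 for receptors and partners, 0.61 for oxidation targets and 0.72 for lipid handling targets.

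Relatives of the members did not all move with them. Of the other perilipins, Plin4 was called with ISO without Dox (1.43, adjusted p 8.32e-06), with ISO and Dox (2.29, adjusted p 2.26e-09) and with SR-3420 and Dox. Plin1, Plin3 and Plin5 were called in none of these. Plin1 passed the p threshold below the fold limit with ISO and Dox (0.52, adjusted p 0.0101) and with SR-3420 and Dox (0.72, adjusted p 0.00239). It did so too with SR-3420 without Dox (0.92, adjusted p 0.00135) and with Dox in DMSO (0.76, adjusted p 0.00519). Among other uncoupling carriers, Ucp1, which makes heat in brown fat, was called higher with ISO in both states, from DMSO libraries with so few counts that no fold is given. Slc25a27 fell with ISO, at -1.49 without Dox and -1.71 with Dox (adjusted p 0.000104 and 1.45e-05). Slc25a14 fell with ISO and Dox (-1.29, adjusted p 0.0193). None of these 3 carriers was called with SR-3420 in either state, where 0.265% of all genes without Dox and 3.10% with Dox were called in either direction. Among other fatty acid binding proteins, 3 of 7 were tested. Fabp5 rose with ISO without Dox (1.23, adjusted p 0.00025) and with Dox (1.83, adjusted p 2.42e-07). Fabp4 rose with ISO and Dox (2.38, adjusted p 6.52e-08) and with SR-3420 in both states (1.87 without Dox, adjusted p 0.00075), whereas Fabp3 fell with ISO and Dox. Of 11 other acyl-CoA thioesterases, 5 were tested and none was called in any of the 8 comparisons, and the tested relative of Angptl4, 1 of 1, was not called either. Over these comparisons 0.265% to 13.1% of all genes were called in either direction, so no call among so few genes is near that background.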

How the data were processed

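RNA was sequenced from 18 libraries of a mouse brown adipocyte line, in 6 groups of 3 assigned by sample title. The methods of the study state that the authors mapped reads to mm9 with STAR (version 2.4.2a in the submitters' processing notes), kept 1 read per position and length with HOMER and counted with iRNA-seq. The deposited values were raw counts per gene, not normalized. iRNA-seq was named for counting over genes, while the deposited lengths lie near intron lengths for most genes, and Abhd5 counts rose with its rescue construct, so exon reads are taken to be included and the share of unspliced RNA is not known here. The strand setting is not given in the sources used here.

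Counts were tested with edgeR 4.0.16 (R 4.3.3, quasi-likelihood, TMM, filterByExpr, 1 mean per group, all 18 libraries). Of 17672 genes, 10178 were tested and 7494 were not. Two-sided p-values were adjusted over these genes (Benjamini-Hochberg). Each SE was worked back as the size of the log2 fold change divided by the square root of its F statistic. The 95% intervals of log2 fold changes used that SE with a t quantile. Called means an adjusted p not above 0.05 with a log2 fold change of 1 or more in either direction. The fit was tested on simulated data. Library totals (689910 to 1956565) limit the precision of genes with few counts, and intervals of count ratios (exact, 95%) and limits of 3 counts cover counting error only.

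Same-numbered libraries deviated together. Over 4929 genes with a mean count of at least 50, every same-number correlation in the 6 pairs of groups lay between 0.11 and 0.416. The replicate number was therefore taken to pair the samples and was used as a block in an alternative. The study describes independent experiments, but does not state that the numbers match them across groups. The other alternatives were RLE factors, library totals, other count filters, DESeq2 1.42.0, limma-voom (limma 3.58.1), only the groups compared, no fold limit, and leaving out each library. The members and lists were chosen with earlier results of these data known. Named genes were the 8 members, Abhd5, Pdk4, from each pathway or family list at most 3 called higher and 3 called lower per comparison by smallest p and any needed to explain a count, and the 3 tested genes most like each called member. Promoters came from RefSeq on GRCm38.p6 and positions from mm9.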

Additional observations from a re-analysis of the deposited data

How the results depend on the processing

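The number of members called changed with the processing in 7 of 8 comparisons. With at least 10 counts in every library it was 1 for ISO with Dox and 1 for SR-3420 with Dox, where 3 had been called in each, because fewer members were tested. For ISO without Dox it was 2 in place of 3 with that filter, with library totals and with only the groups compared. Without a fold limit it was 4 for ISO in both states. For SR-3420 with Dox it was 2 with library totals, without a count filter, with DESeq2 and with only the groups compared, where Ucp3 was not called. For SR-3420 without Dox it was 1 in place of 0 without a count filter, with at least 10 counts in every library, with limma-voom, with the replicate block and with only the groups compared. With the replicate block it was also 1 for the SR-3420 interaction and 1 for ISO against SR-3420 with Dox, and 2 in the latter without a fold limit. The replicate block changed no other call of a member. Leaving out 1 library at a time gave 0 to 3 members for ISO without Dox, 3 to 4 for ISO with Dox, 0 to 1 for SR-3420 without Dox, 2 for SR-3420 with Dox, 0 to 1 for Dox in DMSO and 0 to 1 for ISO against SR-3420, and 0 in both interactions. Plin2 and Hilpda with Dox were called for both stimuli under every fit that left out 1 library, with Hilpda at 3.63 to 5.53 for ISO and 3.20 to 5.10 for SR-3420. Without Dox, Plin2 with ISO fell below the fold limit with library totals (0.88) or without DMSO replicate 1 or 3 or ISO replicate 2 (0.81 to 0.94). Hilpda with ISO was lost without DMSO replicate 3 or ISO replicate 1, at 2.08 and 2.06 (adjusted p 0.0985 and 0.128). Angptl4 with ISO was lost with limma-voom (-0.99), and without DMSO replicate 1 or 3 or ISO replicate 2 (-0.89 to -0.78). The cause was not tested.

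Directions turned only for values that passed no test. Hilpda with SR-3420 without Dox was -0.21 with limma-voom, Ucp2 with SR-3420 and Dox -0.17 with library totals, and the ISO interaction of Ucp2 -0.036 with limma-voom. Leaving out 1 library gave -0.43 to 0.10 for Angptl4 with ISO and Dox, -0.47 to 0.094 for its SR-3420 interaction, -0.092 to 0.58 for Fabp3 with SR-3420 without Dox, -0.84 to 1.42 for Hilpda with Dox in DMSO, -0.58 to 0.99 for Hilpda with SR-3420 without Dox and -0.37 to 0.068 for Plin2 between ISO and SR-3420. It gave -0.39 to 0.38 for the ISO interaction of Ucp2, -0.038 to 0.13 for Ucp2 with SR-3420 and Dox, -0.020 to 0.74 without Dox and -0.72 to 0.056 for its SR-3420 interaction. For Ucp3 it gave -0.78 to 0.55 in the ISO interaction and -0.19 to 0.88 in the SR-3420 interaction. Of all values of single members, 367 kept their direction and side of the threshold under the other alternatives, 12 newly passed, 5 no longer passed and 3 turned. Over all genes, the replicate block raised the genes called from 133 to 235 in the ISO interaction, from 60 to 128 in the SR-3420 interaction and from 27 to 41 with SR-3420 without Dox. At least 10 counts in every library brought the calls to between 0.396 and 0.56 of their number in 5 comparisons (from 1334 to 694 for ISO with Dox), and dropping the fold limit multiplied them by 1.67 to 3.19 in 6. Without a count filter the calls rose to 41 with SR-3420 without Dox, 205 in the ISO interaction and 100 in the SR-3420 interaction, and DESeq2 called 16 genes with SR-3420 without Dox. Leaving out 1 library gave 27 to 61 calls in the SR-3420 interaction, from 60. Of the knockdown libraries, DMSO replicates 1 and 3 left out gave 35 each, and SR-3420 replicates 1 and 3 gave 37 and 28. Of the rescued libraries, DMSO replicate 3 gave 27 and SR-3420 replicate 1 gave 31. It gave 87 to 197 in the ISO interaction (87 without ISO with Dox replicate 1), and 16 to 31 with SR-3420 without Dox (16 without DMSO without Dox replicate 1). The other comparisons stayed within 1.5 times.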
